A study of Macaca radiata with 6 samples.

Results

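The genes of the inhibin subunits and of a TGF-beta ligand and co-receptor were followed in the corpus luteum (CL) of the bonnet monkey after LH support was withdrawn. They are INHA, the inhibin alpha subunit, INHBA, the inhibin beta A subunit, TGFB1, the ligand TGF-beta 1, and TGFBR3, the co-receptor betaglycan. All probe sets with 1 of these names as their only gene symbol in the platform annotation were taken, which gave 8 of 52707 tested probe sets and 4 of 14132 genes. INHA had 1 probe set, INHBA and TGFB1 had 2 each, and TGFBR3 had 3. The genes were chosen by differences between CET and VEH already seen in these same arrays, so those differences are given as a description, without a test.

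Inhibins are dimers of an alpha and a beta subunit, whereas dimers of beta subunits alone are activins. Activins and TGF-beta bind paired serine/threonine kinase receptors that phosphorylate SMAD2 and SMAD3, and inhibins oppose activins by occupying their receptors. Betaglycan is a membrane proteoglycan that presents TGF-beta to its signalling receptors and holds inhibin on the activin receptors. TGF-beta 1 is secreted in a latent form that has to be activated outside the cell. In primates the luteal phase CL secretes inhibin A, the dimer of the alpha and beta A subunits, under the control of LH.

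Adult female bonnet monkeys (Macaca radiata) were given either Cetrorelix (CET), which blocks the GnRH receptor and so takes LH support away, as 1 subcutaneous dose of 150 µg/kg BW, or the vehicle (VEH), 5.25% glucose. Both were given on day 7 of the luteal phase, and whole CL tissue was taken 24 h later. The CET samples are numbered 1, 2 and 3 and the VEH samples 4, 5 and 6, with 1 rhesus macaque array for each, so bonnet monkey RNA was read by probes designed for a related species. CL of both treatments are said to come from the same monkeys, but the labels pair no samples and do not name an animal for any sample, so errors measure the spread between these samples.

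The signals are those of the MAS5 program, scaled to a trimmed mean of 500 on every array. They were taken to log2 and quantile-normalized, and all levels below are on that log2 scale unless a deposited signal is named. Levels of different probe sets are not comparable. The median replicate SD over all probe sets was 0.85 on the log2 scale, and the number of arrays limits the precision. CET 2 stood apart in the control probe sets for the ends of housekeeping transcripts: its mean log2 ratio of 3′ to 5′ signal was 5.92, against 0.61 to 3.54 on the other arrays. By Spearman correlation over probe sets, CET 1 had a mean rho of 0.66 with CET 2 and CET 3 and of 0.76 with VEH. CET 2 and CET 3 also had a lower mean rho with the other CET arrays (0.71 each) than with VEH (0.73 each). The VEH arrays had a mean rho of 0.78 to 0.81 with each other and of 0.73 to 0.76 with CET. Values without CET 1 and without CET 2 are therefore given for INHA, INHBA, TGFB1 and TGFBR3. For other genes they are given only in part. STAR, which brings cholesterol into the mitochondria of steroid-making cells, read between 12.75 and 15.58 on the 6 arrays, and HSD3B2, which makes progesterone, between 13.53 and 14.87. Both were far above the limit of 7.43 below which a probe set was called dim, and CYP11A1 and LHCGR were not analysed here.

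Across all 52707 probe sets, none passed an adjusted p of 0.05 in limma (0%), 2840 had an unadjusted p under 0.05 (5.39%), and the smallest adjusted p was 0.83. The test that the study's methods name for a pair of groups also left none after adjustment, with 2729 before it. Of the 8 probe sets of INHA, INHBA, TGFB1 and TGFBR3, 5 had CET and VEH values that did not overlap, 1 higher and 4 lower after CET. Over all probe sets, 11.2% did not overlap, 5.9% higher and 5.25% lower. Because the genes were chosen on this contrast, nothing is read from the difference between those shares.

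**Figure D1:**
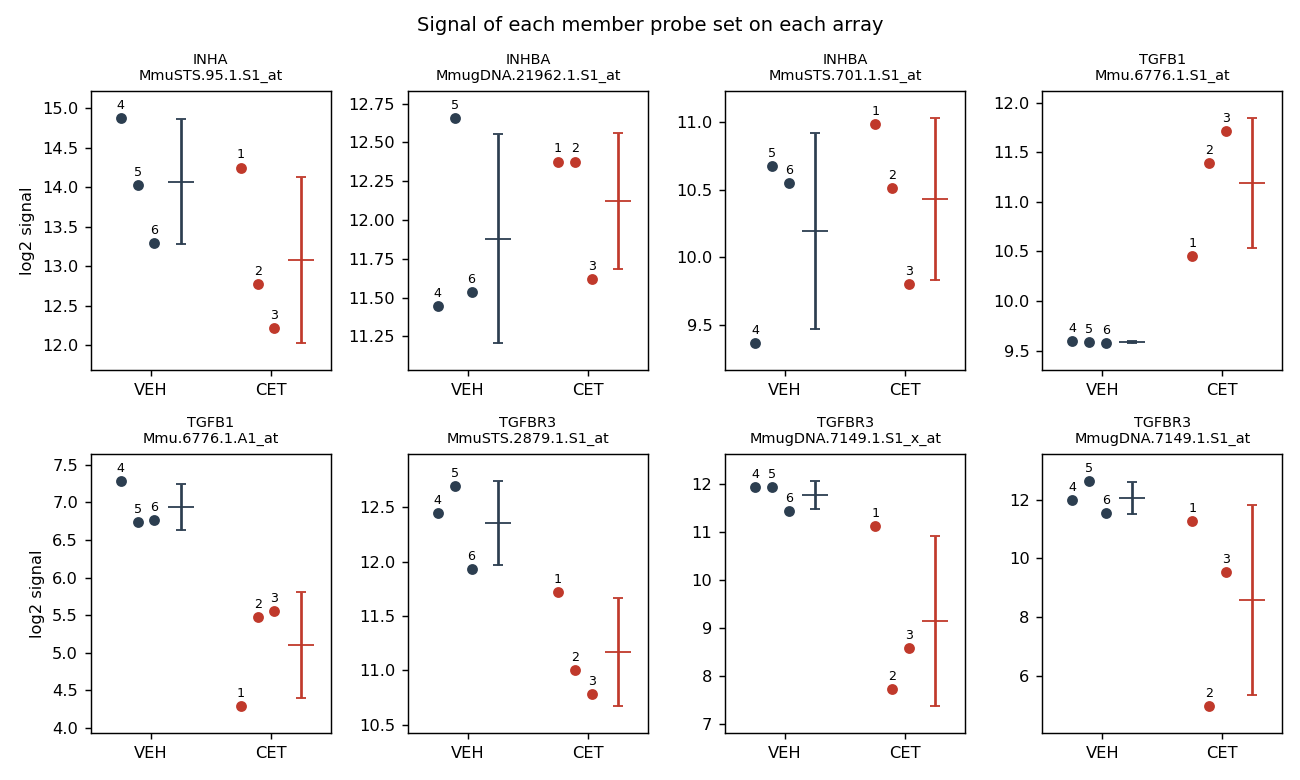
Log2 signal (vertical axis, with its own range in each panel) of each of the 8 probe sets in VEH (4, 5, 6) and CET (1, 2, 3) samples. Points are single arrays, and bars are the mean with SD (n = 3). The groups do not overlap for TGFB1 and TGFBR3 and overlap for INHA and INHBA.

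The inhibin alpha subunit gene, INHA, had a lower mean after CET, but its groups overlapped. The deposited signals were 43678, 17196 and 11288 in VEH 4, 5 and 6, and 27659, 5471 and 3599 in CET 1, 2 and 3. CET 1 thus read above both VEH 5 and VEH 6, while CET 2 and CET 3 read below all VEH samples. On the log2 scale the mean was 14.07 ± 0.79 in VEH and 13.08 ± 1.05 in CET (SD, n = 3). The difference, CET minus VEH, was -0.99 with a standard error of 0.58, a level in VEH 1.99 times that in CET. In VEH itself, INHA ranged from 13.30 to 14.88, a span wider than the difference between the group means.

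Which CET arrays were kept moved the INHA difference. It was -1.52 without CET 1, -0.85 without CET 2 and -0.57 without CET 3. Without VEH 4, the highest array, it was -0.58. The sign was the same under every scaling tried, with -1.32 for the signals as deposited and -1.52 with array medians subtracted. The order of the 6 arrays was VEH 4, CET 1, VEH 5, VEH 6, CET 2 and CET 3, from the highest to the lowest.

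In whole tissue, fewer cells of a type and less RNA per cell cannot be told apart. Of all genes, 54.7% had a lower mean after CET, 49.8% with the signals as deposited and 55.6% without VEH 5. Of 14 granulosa and luteal steroidogenic markers, 8 had a probe set, and 7 of these had a lower mean after CET. This was 6 with the signals as deposited and 5 without VEH 5. Their summed normalized signal ran from 81888 to 107201 in VEH and from 30580 to 80038 in CET, and no marker was at 0. These ranges did not overlap, but the highest CET sum was close to the lowest VEH sum. Such a sum counts bright probe sets most, here STAR, HSD3B2 and FDX1, with mean levels of 14.50, 14.44 and 13.53. STAR differed by -1.49 (standard error 0.53) and HSD3B2 by -0.48 (standard error 0.44). FDX1 differed by -1.50 (standard error 0.88), and read 10.09 in CET 2 against 13.86 to 14.47 on the other arrays. The steroidogenic sum and the mean of INHA were thus both lower in CET, although INHA overlapped between the groups. The part of these cells in the INHA values was not tested.

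The inhibin beta A gene, INHBA, showed no difference beyond its spread at either of its probe sets. At the brighter one, MmugDNA.21962.1.S1_at, the deposited signals were 2909, 7813 and 3093 in VEH 4, 5 and 6, and 5981, 4322 and 2586 in CET 1, 2 and 3. VEH 5 held the highest of these signals and CET 3 the lowest, while after normalization VEH 4 was the lowest. The log2 mean was 11.88 ± 0.67 in VEH and 12.12 ± 0.44 in CET (SD, n = 3), a difference of 0.24 with a standard error of 0.45. This difference changed sign with the scaling: it was -0.024 for the signals as deposited and -0.23 with array medians subtracted. Without CET 1 the difference was 0.11, and without CET 2 it was 0.12.

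The other INHBA probe set, MmuSTS.701.1.S1_at, had signals of 637, 1811 and 1506 in VEH 4, 5 and 6, and 1953, 1498 and 926 in CET 1, 2 and 3. Its log2 mean was 10.20 ± 0.72 in VEH and 10.43 ± 0.60 in CET (SD, n = 3), and the difference was 0.24 with a standard error of 0.51. VEH 4 was the lowest array here too among the VEH samples, and without it the difference was -0.18. Without CET 1 it was -0.038, and without CET 2 it was 0.20. Over the 6 arrays the probe sets of INHBA had a Pearson r of 0.74 with each other. INHBA also did not follow the other genes from array to array: at the brightest probe sets r was 0.070 with INHA, 0.071 with TGFB1 and 0.12 with TGFBR3 (n = 6 arrays, which share their scaling).

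**Figure D2:**
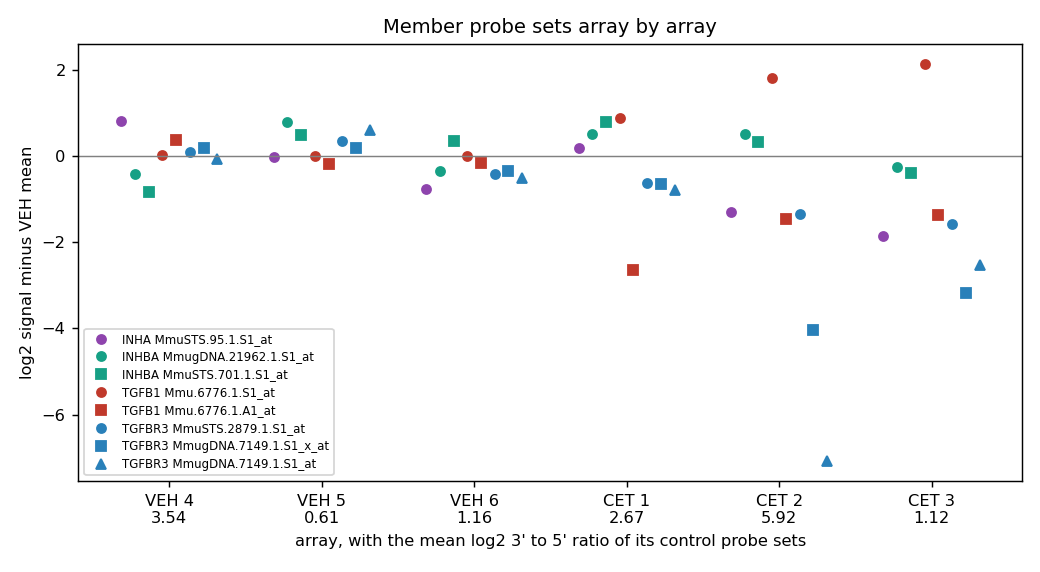
Log2 signal minus the VEH mean of the same probe set (vertical axis) for each of the 8 probe sets on each array (horizontal axis, with the mean log2 ratio of 3′ to 5′ control signals under each name). In CET 2, the array with the ratio of 5.92, a TGFBR3 probe set lies at -7.09, whereas the VEH arrays lie between -0.83 and 0.81 at all 8 probe sets.

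TGFB1 read oppositely at its probe sets. At the brighter, Mmu.6776.1.S1_at, the deposited signals were 745, 747 and 757 in VEH 4, 5 and 6, and 1323, 2536 and 2731 in CET 1, 2 and 3. All CET samples were above all VEH samples, with a gap of 0.86 on the log2 scale between the nearest arrays. The log2 mean was 9.59 ± 0.012 in VEH and 11.19 ± 0.66 in CET (SD, n = 3). The difference was 1.60 with a standard error of 0.45, or 3.04-fold. It was 1.95 without CET 1 and 1.53 without CET 2, and lay between 1.28 and 1.75 under the other scalings, array weights and the 3′ to 5′ covariate.

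The agreement of the VEH arrays at this probe set was unusual. Only 0.0512% of all probe sets had so small an SD over the VEH samples, so the VEH spread seen here says little of the error of a TGFB1 level. The standard error above comes from the fit over all probe sets, which draws each probe set's spread towards that of others at the same intensity. In CET the order was CET 1, CET 2 and CET 3 from the lowest to the highest, and CET 1, the CET array most like VEH over all probe sets, was nearest to the VEH samples here as well.

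The second TGFB1 probe set, Mmu.6776.1.A1_at, was lower after CET. Its signals were 165, 79.0 and 107 in VEH 4, 5 and 6, and 25.0, 44.8 and 60.8 in CET 1, 2 and 3. The log2 mean was 6.93 ± 0.31 in VEH and 5.11 ± 0.71 in CET (SD, n = 3), and the groups did not overlap. The difference was -1.83 with a standard error of 0.80, -1.42 without CET 1 and -2.01 without CET 2. With a mean of 6.02 over all arrays this probe set lay below the dim limit. The sources used here do not say what the letters A1 and S1 in a probe set's name stand for.

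Opposite signs at such pairs were common on these arrays. Of 101 pairs of A1 and S1 probe sets with the same design number, 59.4% differed in sign, and their median r over the 6 arrays was 0.037. The r between the TGFB1 pair was -0.64. In 52 of the 101 pairs (51.5%) the A1 probe set was dim, as for TGFB1. Taking the mean over both probe sets in place of the brighter one gave TGFB1 a difference of -0.11, so the direction for the gene rests on which probe set is read.

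TGFB1 is made by many cells, platelets and leukocytes among them. Of 7 platelet and erythrocyte markers 6 had a probe set, 4 of them with a higher mean after CET, and their summed signal was 3050 to 4564 in VEH and 2935 to 7544 in CET. Of the platelet genes among these, PPBP differed by 1.86 (standard error 0.97) and ITGA2B by 0.49 (standard error 0.71), both at dim probe sets. GP9 differed by 0.035 (standard error 0.57) and PF4 by -0.28 (standard error 0.85). Of 11 leukocyte and macrophage markers 8 had a probe set, 2 of them with a higher mean (3 with the signals as deposited), and their sum was 4630 to 10916 in VEH and 6355 to 10689 in CET. Both sums overlapped between the groups and no marker was at 0. For comparison, 6407 of all 14132 genes had a higher mean after CET. ALAS2, the heme synthesis enzyme of red cell precursors, differed by 1.05 (standard error 0.48), CD68 of macrophages by 0.79 (standard error 0.55) and HBB, a globin, by -0.015 (standard error 0.54), and HBB was positive without CET 1 or VEH 5. The other probe sets of ALAS2 and CD68 had the opposite sign. As the mean over both probe sets of the gene, ALAS2 differed by 0.46 and CD68 by 0.305. LYZ, lysozyme, differed by -0.37 (standard error 1.45), with a positive sign without CET 2, VEH 5 or VEH 6 and a difference of 1.67 after the covariate for the 3′ to 5′ control ratio, and TYROBP, a myeloid adaptor, differed by -0.037 (standard error 0.54), and by 0.53 without CET 3. The part of these cells in the TGFB1 values was not tested.

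TGFBR3, the gene of betaglycan, was lower in every CET sample than in every VEH sample at all 3 of its probe sets. At the brightest, MmuSTS.2879.1.S1_at, the deposited signals were 6324, 7929 and 4171 in VEH 4, 5 and 6, and 3538, 2014 and 1634 in CET 1, 2 and 3. The gap between the nearest arrays, VEH 6 and CET 1, was 0.21 on the log2 scale. The log2 mean was 12.36 ± 0.39 in VEH and 11.17 ± 0.49 in CET (SD, n = 3), a difference of -1.19 with a standard error of 0.42. The level in VEH was 2.28 times that in CET. The difference was -1.42 without CET 1 and -1.15 without CET 2.

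The other probe sets of TGFBR3 share a design number and may share target sequence, so they are not independent readings. At MmugDNA.7149.1.S1_x_at the signals were 4311, 4681 and 2851 in VEH 4, 5 and 6, and 2191, 205 and 433 in CET 1, 2 and 3. Its log2 mean was 11.77 ± 0.30 in VEH and 9.15 ± 1.77 in CET (SD, n = 3). The difference was -2.62 with a standard error of 0.73, -3.63 without CET 1 and -1.95 without CET 2. CET 2 and CET 3 were far below the rest, and CET 1 lay 0.30 below the lowest VEH array.

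At MmugDNA.7149.1.S1_at the signals were 4433, 7780 and 3127 in VEH 4, 5 and 6, and 2419, 31.2 and 787 in CET 1, 2 and 3. The log2 mean was 12.06 ± 0.55 in VEH and 8.59 ± 3.25 in CET (SD, n = 3), and the difference was -3.47 with a standard error of 1.19. This size rested on CET 2. Without that array the difference was -1.71, and without CET 1 it was -4.80. With the 3′ to 5′ ratio of the control probe sets as a covariate it was -2.28. The pooled SD of 2.33 was at the 99.4th percentile of all probe sets, and at the brightest TGFBR3 probe set it was 0.45, at the 14.3rd. The part of RNA quality in the larger differences was not tested beyond these values. The brightest probe set had a difference of -1.20 with the same covariate.

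**Figure D3:**
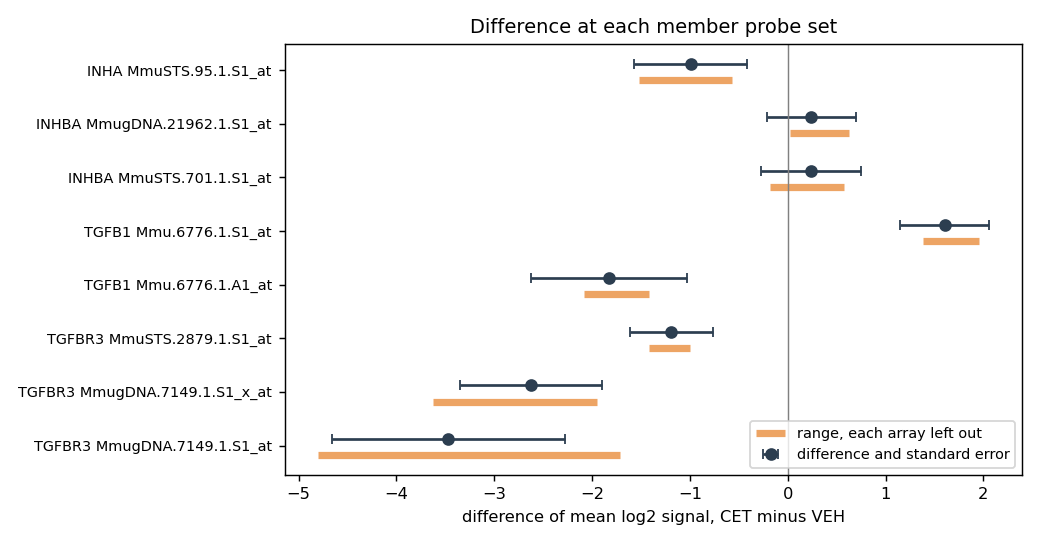
Difference of mean log2 signal, CET minus VEH (horizontal axis), at each of the 8 probe sets. Points with bars are the difference and its standard error from the limma fit, and the orange bars run from the lowest to the highest difference with each array left out in turn. The bar of the TGFBR3 probe set MmugDNA.7149.1.S1_at runs from -4.80 to -1.71, and the bar of INHBA MmuSTS.701.1.S1_at crosses 0.

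The TGFBR3 probe sets followed each other across the arrays, with r of 0.92, 0.77 and 0.92 for the 3 pairs (n = 6). For comparison, over 18076 pairs of probe sets of a single gene the median r was 0.13 and 56.1% had differences of the same sign. Among the 8760 pairs with both probe sets above the dim limit these values were 0.19 and 58.7%. TGFBR3 was among the genes chosen on this contrast, so no test is made of the comparison.

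Betaglycan is carried by many cell types, stromal cells among them. Of 10 endothelial markers 9 had a probe set, and their summed signal was 16620 to 23079 in VEH and 15645 to 26257 in CET. The corresponding values for fibroblast, pericyte and smooth muscle markers (7 of 12) were 17062 to 28934 and 11561 to 29777. Both ranges overlapped widely and no marker was at 0. CDH5, an endothelial cadherin, differed by -1.52 (standard error 0.55) while PECAM1 differed by -0.036 (standard error 0.49). PECAM1 had a positive sign without CET 1, CET 3 or VEH 5. TEK, the brightest endothelial marker after PECAM1, differed in the other direction, by 0.84 (standard error 0.59), and its groups overlapped. The TEK difference was 0.37 without CET 3 and 0.23 with array medians subtracted. Of the 9 endothelial markers 7 had a lower mean after CET, but 2 of 9 without CET 3. The share of all genes was 54.7%, and 50.6% without CET 3. DCN, a fibroblast proteoglycan, differed by -0.24 (standard error 0.63), with a positive sign without CET 2 or VEH 6, and by 0.46 after the covariate for the 3′ to 5′ control ratio. Of the 7 markers of its list 3 had a lower mean after CET and 4 a higher one, and 4 were lower with array medians subtracted. TAGLN, a smooth muscle actin-binding protein, differed by -0.82 (standard error 0.43), and by -1.65 as the mean over its probe sets, and its groups did not overlap. The remaining lists were the theca-lutein markers, with CYP17A1 (difference -0.56, standard error 0.85) as the only 1 of 2 with a probe set and a signal of 909 to 5006 in VEH and 553 to 4455 in CET, and 7 epithelial markers with a sum of 2261 to 2896 in VEH and 886 to 2370 in CET. CYP17A1 differed by 0.23 without VEH 4 and by -0.036 without CET 2. Of the 7 epithelial markers 6 had a lower mean after CET, against 54.7% of all genes. With the signals as deposited 3 were lower and 4 higher, against 49.8% of all genes lower. Among these markers KRT18, a keratin, differed by -1.82 (standard error 0.64), and by -0.93 as the mean over its probe sets. UPK3B, the brightest epithelial marker, differed by 0.079 (standard error 0.65), and by -0.42 without VEH 5. The part of any of these cells in the TGFBR3 values was not tested.

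At their brightest probe sets, INHA and TGFBR3 varied together over the 6 arrays (r = 0.84), and TGFB1 varied opposite to both (r = -0.78 with INHA and -0.94 with TGFBR3). These r include the difference between the groups for which the genes were chosen, and they are descriptions of 6 arrays. VEH 4, the highest array for INHA, was not the highest for TGFBR3, which was VEH 5.

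The genes most like each of the 4 were looked for among the brightest probe sets of 10928 other genes above the dim limit. INHA was followed most closely by PAM16, part of the mitochondrial import motor (r = 0.995), EPHX1, an epoxide hydrolase (0.99), and LOC706634 (0.99), and 100 genes (0.915%) had an r above 0.95. For TGFBR3 the first were PTPRJ, a receptor tyrosine phosphatase (0.99), DHRS9, a retinol dehydrogenase (0.99), and CDA, cytidine deaminase (0.99), with 68 genes (0.622%) above 0.95. For TGFB1 they were OR52B2, an olfactory receptor (0.99), TBATA (0.99) and GP2 (0.99), with 41 genes (0.375%). INHBA had the fewest close followers of the 4, 7 genes (0.0641%), led by SHROOM3, an actin-binding protein (0.98), LOC696134 (0.97) and TTC9C (0.96). These r also include the difference between CET and VEH, on which the 4 genes were chosen. They rest on few arrays, and no share above 0.95 was worked out for a typical gene. Nothing is therefore read from these counts or names, and shared regulation was not tested.

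The other genes of the pathway were read at their brightest probe sets in 6 lists, which together held 91 names, 73 of them with a probe set. None of the 73 passed the adjusted p in limma, as was so for all 14132 genes (0%). At an unadjusted p under 0.05, 3 were lower after CET and 0 higher, where 3.01% of all genes were lower and 2.02% higher. Of the 73, 43 had a lower mean after CET, against 54.7% of all genes, and the median difference was -0.12 against -0.084 for all genes. The median of the 73 genes was 0.021 without CET 2.

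**Figure D4:**
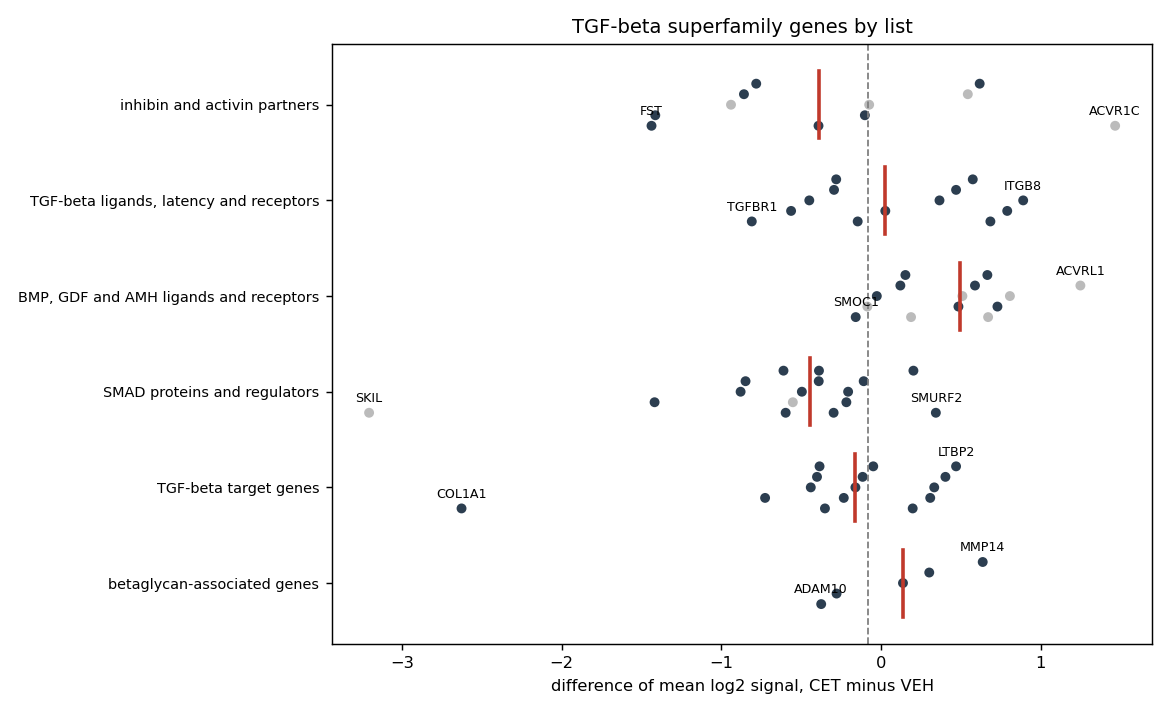
Difference of mean log2 signal, CET minus VEH (horizontal axis), of the genes in each of 6 TGF-beta superfamily lists. Each point is a gene at its brightest probe set, grey where that probe set was dim, red lines are list medians and the dashed line is the median of all genes, -0.084. SKIL and COL1A1 lie farthest to the left, at -3.21 and -2.63.

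Among the binding proteins and receptors of inhibin and activin, 8 of 11 genes with a probe set had a lower mean after CET and 3 a higher one. With the signals as deposited these were 7 and 4, and the median in the main setting was -0.39. Of all genes, 54.7% had a lower mean, 49.8% with the signals as deposited. Without CET 3, 6 of 11 were lower with a median of -0.086, and without VEH 5, 7 of 11 with a median of -0.095. Follistatin, which binds and blocks activins, is encoded by FST. It read 10.50, 9.40 and 9.60 in VEH 4, 5 and 6, and 9.46, 9.38 and 6.35 in CET 1, 2 and 3. The FST difference was -1.44 (standard error 0.79), but -0.43 without CET 3, which was low on its own. FSTL3, a related binding protein, differed by -1.41 (standard error 0.75) and its groups overlapped, with a range of -2.43 without CET 1 to -0.85 without CET 3. Of the other beta subunits, INHBB differed by 0.54 (standard error 0.78) at a dim probe set and INHBC by 0.62 (standard error 0.48). These were 0.21 for INHBB without VEH 5 and 0.25 for INHBC without CET 2.

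Among the activin receptors, ACVR2A, a type II receptor, differed by -0.94 (standard error 0.85) and ACVR1C by 1.47 (standard error 0.87), both at dim probe sets. ACVR2A differed by -0.16 without CET 2, and ACVR1C by 0.80 without CET 1. ACVR1B, the main type I receptor of activin, differed by -0.10 (standard error 0.43). It changed sign to 0.73 when the mean over its 3 probe sets was taken. None of these differences was beyond 2 standard errors.

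Among the TGF-beta ligands, latency proteins and receptors, 6 of 13 genes had a lower mean after CET and 7 a higher one. With the signals as deposited or array medians subtracted, 7 were lower and 6 higher. The share of all genes with a lower mean was 54.7%. The signalling receptor TGFBR1 differed by -0.81 (standard error 0.53), and by -0.24 without CET 2. TGFBR2, the type II receptor, differed by -0.29 (standard error 0.42), and by -1.22 as the mean over its probe sets. ENG, endoglin, the other co-receptor of the family, differed by -0.56 (standard error 0.97), with the sign positive without CET 3 or VEH 4. TGFB3 differed by 0.57 (standard error 0.91), and by -0.37 without VEH 4. TGFB2 was not analysed here. Of the proteins of latency, THBS1, which can activate latent TGF-beta, differed by 0.79 (standard error 0.47), LRRC32, which anchors it on cells, by 0.68 (standard error 0.48), and LTBP1, which anchors it in the matrix, by -0.45 (standard error 0.45). As the mean over the probe sets of each gene, THBS1 differed by 0.26 and LRRC32 by 0.15. LRRC32 differed by 0.25 without VEH 6, and LTBP1 by -0.035 without CET 2.

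In the list of BMP, GDF and AMH ligands and receptors, 11 of 14 genes had a higher mean after CET. This was 12 with the signals as deposited and 10 with array medians subtracted. The median was 0.50, and 0.28 without VEH 5. With dim probe sets left out, 6 of 8 genes were higher, with a median of 0.32. Over all genes, 6407 of 14132 had a higher mean. None of the 14 had an unadjusted p under 0.05, and 8 of them were above the dim limit. Their summed signal, in which bright probe sets count most, was 4437 to 5252 in VEH and 6268 to 7167 in CET. The sums of the other pathway lists overlapped between the groups. For the list of SMAD proteins and regulators they were 17487 to 19189 in VEH and 11657 to 18863 in CET. BMPR1B, a type I BMP receptor, differed by 0.67 (standard error 0.45), and ACVRL1, the endothelial type I receptor, by 1.25 (standard error 0.88) at a dim probe set. BMPR1B differed by 0.37 without CET 2 and ACVRL1 by 0.64 without CET 1. On the other side, SMOC1 differed by -0.16 (standard error 0.88), and by 1.09 without CET 1. BMP6 differed by -0.086 (standard error 0.74), and by 0.16 with the signals as deposited.

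Of the SMAD proteins and their regulators, 14 of 16 had a lower mean after CET. This was 14 with the signals as deposited and 15 with array medians subtracted. Of all genes, 54.7% had a lower mean, with 49.8% and 59.5% under these scalings. The median was -0.44. Without CET 2, 11 of 16 were lower, with a median of -0.32. SKIL, a corepressor of SMADs, and ZFYVE9, which brings SMAD2 and SMAD3 to the receptor, had an unadjusted p under 0.05. At that threshold 3.01% of all genes were lower after CET. SKIL read 7.25, 4.47 and 5.75 in VEH 4, 5 and 6, and 1.72, 2.73 and 3.41 in CET 1, 2 and 3, all below the dim limit. Its difference of -3.21 (standard error 0.91) was -1.73 with a pseudocount of 16, and limma's adjusted p was 0.83. ZFYVE9 differed by -1.42 (standard error 0.53, adjusted p = 0.83 in limma), by -0.93 without CET 2 and by -0.57 as the mean over its 4 probe sets.

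The signal transducers differed by less. SMAD2 read 10.54, 10.66 and 10.83 in VEH 4, 5 and 6, and 10.32, 10.01 and 9.87 in CET 1, 2 and 3. Its groups did not overlap, the difference was -0.61 (standard error 0.40), and its other 3 probe sets had the same sign. SMAD3 differed by -0.30 (standard error 0.41), or -0.13 without CET 2, and SMAD4, the shared partner of the family, by -0.50 (standard error 0.57), with 0.021 without CET 2. The inhibitory SMAD7 differed by -0.60 (standard error 0.59). The positive differences were those of SMURF2, a ubiquitin ligase of the receptors (0.34, standard error 0.55, and -0.046 without CET 1), and of HGS (0.20, standard error 0.41, and -0.18 with array medians subtracted).

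Of the genes that TGF-beta or BMP signalling is known to regulate, 10 of 15 had a lower mean after CET. This was 11 with the signals as deposited or array medians subtracted, but 5 of 15 without CET 2. The share of all genes was 54.7%, and 56.6% without CET 2. The median of these 15 genes was -0.16, and 0.11 without CET 2. COL1A1, the type I collagen chain, was lower at an unadjusted p under 0.05, as were 3.01% of all genes. COL1A1 read 12.56, 10.98 and 11.44 in VEH 4, 5 and 6. In CET 1, 2 and 3 it read 12.12, 8.42 and 6.56, so CET 1 lay among the VEH samples. Its difference was -2.63 (standard error 1.08, adjusted p = 0.83 in limma), -1.43 without CET 3, and its other probe set had the opposite sign. COL1A2, the partner chain, differed by -0.44 (standard error 0.43). TSC22D1 differed by 0.31 (standard error 0.38) and by -0.25 with array medians subtracted, and LTBP2 by 0.47 (standard error 0.46) and by -0.25 as the mean over its probe sets.

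Of the genes whose proteins bind betaglycan inside the cell or can shed its outer part, 2 of 5 had a lower mean after CET. This was 3 of 5 with array medians subtracted. The share of all genes was 54.7%, and 59.5% under that scaling. MMP14, a membrane protease, differed by 0.64 (standard error 0.59) and ARRB2, an arrestin that carries betaglycan into the cell, by 0.30 (standard error 0.45). MMP14 differed by 0.22 without CET 3, and ARRB2 by 0.016 without CET 2. ADAM10, another sheddase, differed by -0.37 (standard error 0.42) and GIPC1, an adaptor of the betaglycan tail, by -0.28 (standard error 0.39). All were within 2 standard errors of 0.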

How the data were processed

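CL RNA of 3 CET and 3 VEH samples was measured, with 1 rhesus macaque array for each. The authors deposited the intensity of each probe set as a MAS5 signal on a linear scale. The mean without the top and bottom 2% was 500 on every array. No source used here gives detection calls, the scan or a version of MAS5.

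Signals were floored at 1, taken to log2 and quantile-normalized over all 52865 probe sets, after which 158 control probe sets were left out. The platform annotation gave 24956 probe sets 1 symbol, 361 several and 27390 none, and those with several were left unnamed. The groups were compared with limma 3.58.1 under R 4.3.3, allowing for an intensity trend, with Benjamini-Hochberg adjustment over 52707 probe sets, two-sided, a test checked on simulated data. Where a gene had several probe sets, the one brightest on average over the 6 arrays stood for it. Probe sets under the 40th percentile of mean log2 signal, 7.43, were called dim.

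The 4 genes, the gene lists and the marker lists were chosen with earlier results of these data known. Named pathway genes are those with an unadjusted p under 0.05, the 2 with the smallest p in each direction of each list, and 14 genes named whatever their values. Of the marker lists, the rule names the 2 genes with the highest mean and the one with the smallest p, and the text gives at least 1 of each list. FDX1, PPBP, ITGA2B, GP9 and PF4 are given in addition. CTGF was counted as CCN2, its newer symbol. The alternatives were the signals as deposited, array medians subtracted, a pseudocount of 16, dim probe sets left out, a covariate for the 3′ to 5′ control ratio, array weights, no trend in limma, the methods' t-test, the mean over a gene's probe sets, and leaving out each array.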

Additional observations from a re-analysis of the deposited data

How the results depend on the processing

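No probe set passed the adjusted p under any of the 14 alternatives tried for it. The number with an unadjusted p under 0.05, 2840, was 1756 with dim probe sets left out and 5086 with array weights. With each array left out it was 1694 (without VEH 5) to 7020 (without CET 1). The number of pathway genes with an unadjusted p under 0.05, 3, was 6 with array medians subtracted, and 2 to 9 with each array left out, with 9 without CET 1. The median difference of the pathway genes, -0.12, was -0.32 with array medians subtracted, and -0.28 (without CET 1) to 0.021 (without CET 2) with each array left out. Scaling moved the median difference of all probe sets from 0.0025 to 0.17 with the signals as deposited and -0.030 with array medians subtracted, so differences from the deposited signals are to be read against 0.17. The share of genes with a lower mean, 54.7%, was 49.8% and 59.5% under these scalings.

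With each array left out, the difference of INHA was -1.52 to -0.57, that of INHBA 0.028 to 0.62 at the brighter probe set and -0.18 to 0.57 at the other, that of TGFB1 1.38 to 1.95 at the brighter and -2.08 to -1.42 at the dimmer, and that of TGFBR3 -1.42 to -1.0, -3.63 to -1.95 and -4.80 to -1.71 at its 3 probe sets. As the mean over its probe sets, the difference was -0.11 for TGFB1 and -2.43 for TGFBR3. In 3 of the 8 probe sets the sign changed under at least 1 alternative: both of INHBA, and the brighter of TGFB1 when it was averaged with the dimmer. Of 61 other genes that the naming rule picks, 18 changed sign under at least 1 alternative. The causes were not tested. No paired analysis was possible because the labels name no animal and pair no samples. The standard errors therefore treat the samples as unpaired, although CL of both treatments are said to come from the same monkeys. The number of arrays, and the absence of detection calls here, limit what can be said of the dim probe sets, among them Mmu.6776.1.A1_at of TGFB1.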
